A study of Mus musculus with 16 samples.

Results

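The genes described here are 7 genes of cholesterol synthesis, 6 enzymes (*Hmgcs1*, *Idi1*, *Fdft1*, *Sqle*, *Lss* and *Cyp51*) and the transcription factor *Srebf2*. They were taken as a named list, chosen with earlier results of these data known. The list was matched by gene identifier to the 51912 genes of the count table. All 7 were among the 20159 genes with enough counts to be tested. Bulk RNA was sequenced from the ventricles of neonatal mice, with 4 libraries in each of 4 groups. Surgery was done on postnatal day 1 and hearts were taken 7 days post-surgery. Wild-type mice were C57BL/6J from a commercial supplier, whereas the *Lrrc10*-/- mice were made in a C57BL/6 background, so that source and genotype cannot be told apart. WT SH were wild-type pups given sham surgery, in which the heart was neither exposed nor ligated, and WT MI were wild-type pups with myocardial infarction (MI) by ligation of the left anterior descending artery. KO SH and KO MI were *Lrrc10*-/- pups, which lack this cardiomyocyte protein in the whole body, given the same procedures. The study set out to learn how *Lrrc10* loss changes the ventricle at an age when the wild-type mouse heart can still regenerate.

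Cholesterol is built from acetyl-CoA through the mevalonate pathway, which makes the isoprenoid units that are joined to squalene, after which squalene is closed to lanosterol and trimmed to cholesterol. Genes along this route share a regulator, SREBP2, the product of *Srebf2*, which is held in the endoplasmic reticulum while sterols are plentiful and is released to the nucleus when they run low. SREBP2 binds sterol regulatory elements (SREs) in promoters, also in that of its own gene, and dividing cells draw on the route for new membrane. Nuclear SREBP2 protein and sterol levels were not measured in the files used here, which hold transcripts only.

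The stretches before the transcription start are shown for the 4 genes in which SRE-like letters were found. Letters were searched on both strands in the 300 bases before the canonical start (GENCODE M39, GRCm39). The letters TCACNCCAC were found in *Hmgcs1*, at -232 to -224 from the start, and in 1.21% of the windows of the 14590 protein-coding genes tested. The shorter letters CACNCCAC, which lie within those, were found in *Hmgcs1* and in *Sqle* (-198 to -191) and in 6.87% of the windows. A looser form, ATCACNNCA, was chosen after the windows had been read, and was found in *Cyp51* (-40 to -32), in *Srebf2* (-75 to -67) and in 2.23% of the windows. Capitals mark these letters, and all stretches read 5′ to 3′ on the strand of the gene.
Hmgcs1, plus strand, chr13:120151742-120151901: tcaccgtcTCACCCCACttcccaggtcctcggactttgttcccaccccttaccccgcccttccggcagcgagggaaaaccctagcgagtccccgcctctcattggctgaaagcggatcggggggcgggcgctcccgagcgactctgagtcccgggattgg
Sqle, plus strand, chr15:59186642-59186801: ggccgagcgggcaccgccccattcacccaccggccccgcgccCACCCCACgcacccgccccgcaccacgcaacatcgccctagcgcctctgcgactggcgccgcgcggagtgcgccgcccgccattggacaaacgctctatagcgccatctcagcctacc
Cyp51, minus strand, chr5:4154757-4154906: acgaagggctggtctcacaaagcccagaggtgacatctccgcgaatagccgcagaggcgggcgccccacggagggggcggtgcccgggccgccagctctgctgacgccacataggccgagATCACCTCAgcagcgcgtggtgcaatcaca
Srebf2, plus strand, chr15:82031222-82031381: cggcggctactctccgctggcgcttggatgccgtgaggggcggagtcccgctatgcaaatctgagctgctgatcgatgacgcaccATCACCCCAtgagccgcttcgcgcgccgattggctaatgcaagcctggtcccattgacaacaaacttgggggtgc
*Idi1*, *Fdft1* and *Lss* held none of the 3 letter patterns in their windows, although *Idi1* varied closely with *Sqle* and *Cyp51* across the libraries. The canonical starts of *Idi1* (8935919, gene from 8935537) and *Fdft1* (63415442, minus strand, gene to 63417027) lie inside the annotated genes. Their windows fall within these genes, and the bases before the outer ends were not searched. CCAAT, the letters bound by NF-Y, was found in 6 of the 7 genes (all but *Cyp51*) against 39.5% of all windows, and GGGCGG, the letters bound by Sp1, in 5 of 7 against 48.6%. Of 14 other genes of the route, 0 held the first pattern, 1 (*Acat2*) the shorter one and 0 the looser one. A match of letters is a description of the sequence and was not tested for binding.

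Each library held between 33783874 and 57470159 counts (median 45092798), and the 7 genes had between 106 and 2801 counts in a library. *Lrrc10* had 0 counts in all 8 KO libraries and between 1075 and 1850 in the WT libraries. Reads of genes expressed by 1 sex marked all 4 WT SH libraries as male, whereas the other groups had 2 male and 2 female libraries each. This reading goes against the study's description, which gives equal numbers of males and females. Levels below are CPM (counts scaled to a common library size) on library sizes scaled by TMM, given as mean ± SD over 4 libraries. Values per gene length (RPKM over the union of exons) were used wherever levels of different genes are set side by side. A call is a Benjamini-Hochberg adjusted p under 0.1 in edgeR's quasi-likelihood test, fitted to all 16 libraries, with a log2 fold change of 0.5 or more in size. In whole ventricle, fewer cells of a type and less RNA per cell cannot be told apart.

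Per gene length, *Hmgcs1*, *Fdft1* and *Idi1* had the highest mean levels of the 7 genes. *Hmgcs1* was highest, at 8.03 ± 0.913 RPKM over the 16 libraries. It was followed by *Fdft1* (4.38 ± 0.414 RPKM) and *Idi1* (3.61 ± 1.06 RPKM), whose SDs overlap. *Cyp51* (2.54 ± 0.511 RPKM) and *Srebf2* (2.40 ± 0.335 RPKM) did not differ beyond their spread either. *Sqle* (0.629 ± 0.201 RPKM) and *Lss* (0.320 ± 0.0666 RPKM) were the lowest, so that the enzymes on either side of squalene epoxide had the least transcript of the 7.

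**Figure D1:**
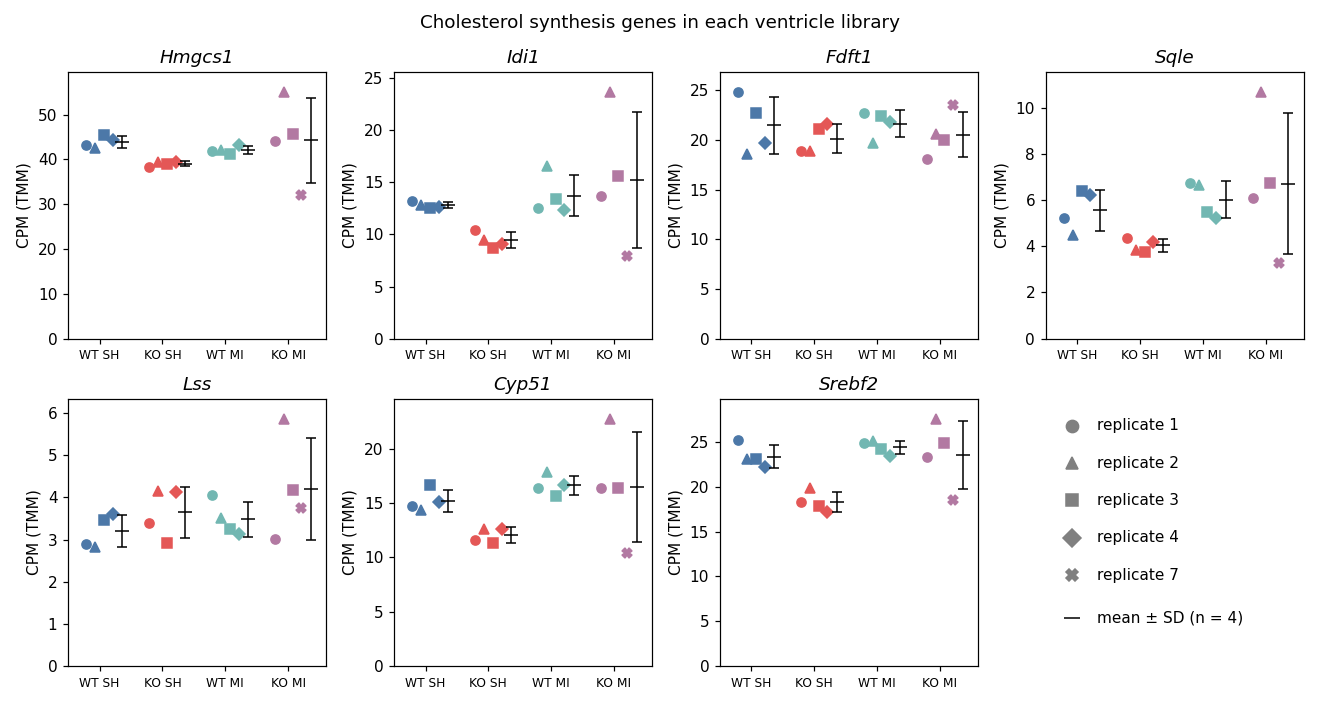
CPM (TMM-scaled, linear axes from 0) of the 7 genes in each of the 16 libraries, with marker shape for the replicate number and a bar for mean ± SD of 4 libraries. In *Hmgcs1*, *Idi1*, *Sqle*, *Cyp51* and *Srebf2* the 4 KO SH libraries lie below the 4 WT SH libraries, and KO MI replicates 2 and 7 lie at opposite ends of the KO MI group.

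In sham hearts, the comparison of KO SH with WT SH asks what *Lrrc10* loss does without an infarct. *Hmgcs1*, *Idi1*, *Sqle*, *Cyp51* and *Srebf2* each had lower levels in all 4 KO SH libraries than in any WT SH library, at 0.725 to 0.889 times the WT SH level, while *Fdft1* and *Lss* overlapped. None of the 7 was called, because the drops were smaller than the minimum fold change or, for all but *Srebf2*, had an adjusted p above the threshold. Of all genes tested, 2.53% were called lower and 2.48% higher. All KO SH libraries lay below all WT SH libraries in 10.2% of genes, against 5 of these 7. Since the list was chosen with earlier results of these data known, this share is a description and not a test. Over all 16 libraries those 5 genes varied together, with Pearson's r of 0.79 to 0.97 for deviations from the group means. These r include KO MI replicates 2 and 7, and r within the sham groups alone was not computed. In WT SH, *Hmgcs1*, *Sqle* and *Cyp51* were highest in replicate 3, and *Idi1* and *Srebf2* in replicate 1. The 7 genes were read in the same libraries, so counts among them are not counts of separate observations. The median log2 fold change was -0.34 over the 7 genes and 0.01 over all genes tested.

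*Hmgcs1* makes HMG-CoA, the precursor of mevalonate. Its level in WT SH replicates 1 to 4 was 43.2, 42.6, 45.5 and 44.3 CPM, and in KO SH 38.3, 39.4, 38.9 and 39.5 CPM. Every KO SH value was lower, and the KO SH libraries had a coefficient of variation of 1.42%. The log2 fold change was -0.17 (SE 0.10, edgeR adjusted p = 0.341). *Idi1*, which interconverts the 2 isoprenoid building blocks, read 13.2, 12.8, 12.6 and 12.6 CPM in WT SH and 10.5, 9.51, 8.70 and 9.13 CPM in KO SH. The groups were separate, and the log2 fold change was -0.44 (SE 0.21, edgeR adjusted p = 0.212).

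*Sqle*, squalene epoxidase, is a rate-limiting enzyme between squalene and the sterols. It read 5.21, 4.49, 6.38 and 6.22 CPM in WT SH and 4.35, 3.86, 3.73 and 4.20 CPM in KO SH. WT SH replicate 2 came close to the KO SH values, and the log2 fold change was -0.46 (SE 0.23, edgeR adjusted p = 0.247). *Cyp51*, which removes a methyl group from lanosterol, read 14.7, 14.4, 16.6 and 15.1 CPM in WT SH and 11.5, 12.6, 11.3 and 12.6 CPM in KO SH. Its log2 fold change was -0.34 (SE 0.15, edgeR adjusted p = 0.184), with a clear gap between the groups. *Fdft1*, squalene synthase, which commits the route to sterols, had 21.5 ± 2.89 CPM in WT SH and 20.1 ± 1.43 CPM in KO SH. *Lss*, which closes squalene epoxide to lanosterol, had 3.20 ± 0.389 CPM in WT SH and 3.64 ± 0.600 CPM in KO SH, so its mean was on the other side. The adjusted p was 0.604 for *Fdft1* and 0.581 for *Lss* (edgeR).

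*Srebf2* read 25.2, 23.1, 23.1 and 22.2 CPM in WT SH and 18.3, 19.9, 17.9 and 17.2 CPM in KO SH. The KO SH level was 0.782 times that of WT SH, a log2 fold change of -0.35 (SE 0.09), and edgeR gave an adjusted p of 0.0232. *Srebf2* was the 1 gene of the 7 under the p threshold on the lower side, where 7.22% of all genes lay. When edgeR was fitted to these 8 libraries alone, whose spread was smaller, 5 of these 7 passed an adjusted p of 0.1 on the lower side, against 10.6% of genes. These p were 0.0252 for *Hmgcs1*, 0.00159 for *Idi1*, 0.0237 for *Sqle*, 0.00710 for *Cyp51* and 0.00268 for *Srebf2*. That fit with no minimum fold change was chosen after the data had been seen. The 5 genes, read in the same libraries, are not separate observations. An exact permutation test (two-sided) of each of the 5 genes gave p = 0.0286, the smallest that 4 against 4 libraries allow. Groups that do not overlap can give no other p in this test, so it restates the separation and adds no support.

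Since all WT SH libraries read as male, sex was partly mixed with genotype in this comparison. With sex as a term in the fit, *Idi1* was called (log2 fold change -0.60, edgeR adjusted p = 0.0796) and *Srebf2* had a log2 fold change of -0.41 (adjusted p = 0.0159). With male libraries alone, which leaves 2 KO SH libraries, *Srebf2* had a log2 fold change of -0.41 (adjusted p = 0.0791) and *Idi1* one of -0.52 (adjusted p = 0.191). Several marker sums were also lower in KO SH. The summed level of 10 proliferation genes was 508 to 587 CPM in WT SH and 413 to 466 CPM in KO SH, with 0 of 10 called. That of 8 macrophage genes was 49.8 to 57.8 CPM in WT SH and 40.8 to 48.9 CPM in KO SH, with 2 of 8 called lower, where 2.53% of all genes were. The 8 endothelial genes summed to 943 to 966 CPM in WT SH and 867 to 912 CPM in KO SH (0 of 8 called), and the 7 erythroid genes to 528 to 731 and 417 to 498 CPM (1 of 7 called lower). The 12 skeletal muscle genes summed to 349.9 to 454 CPM in WT SH and 307 to 349.6 CPM in KO SH (1 of the 9 tested called lower), whereas the fibroblast and cardiomyocyte sums overlapped. The cardiomyocyte sums overlapped through WT SH replicate 4 alone (28206 CPM, KO SH 28002 to 28593 CPM). Of 8 cardiomyocyte genes 7 were below 0, and 4 had an edgeR adjusted p under 0.1 on the lower side, where 7.22% of all genes lay. Of 8 fibroblast genes these were 7 and 1, and 0 genes of either list were called. The part of these cells in the *Srebf2* and enzyme values was not tested.

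**Figure D2:**
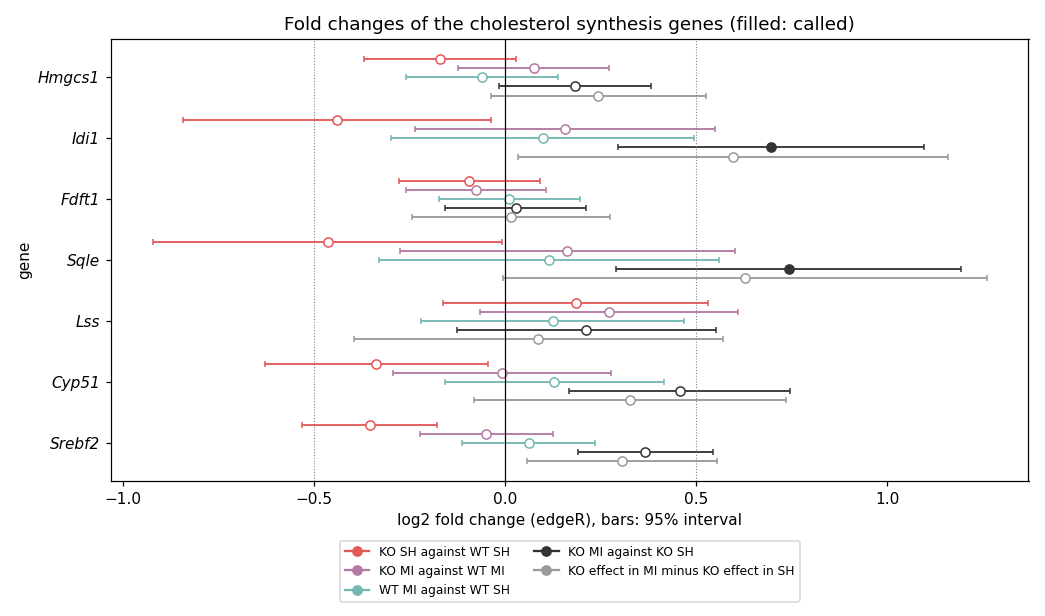
Log2 fold changes of the 7 genes in the 4 comparisons of groups and in the difference of the KO effect between MI and SH, from edgeR over 16 libraries, with bars for 95% intervals and filled points for calls. Filled points are *Idi1* and *Sqle* in KO MI against KO SH, and the points of *Fdft1* lie between -0.09 and 0.03 in all 5.

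In wild-type hearts, WT MI against WT SH asks how the regenerating ventricle responds to infarction. The 7 genes had log2 fold changes between -0.06 and 0.13, none was called, and 2.78% of all genes were called in either direction. *Hmgcs1* had 42.1 ± 0.839 CPM in WT MI and 43.9 ± 1.27 CPM in WT SH, and *Srebf2* had 24.4 ± 0.734 and 23.4 ± 1.27 CPM. The highest of the 4 WT MI values of *Idi1* (16.6 CPM, replicate 2) stood above the others (12.6, 13.4 and 12.3 CPM), and *Cyp51* was highest in the same library at 17.8 CPM. Sex differed between these groups too, and with sex as a term the log2 fold change of *Idi1* went from 0.10 to -0.07 and that of *Sqle* from 0.12 to -0.00497. The median of the 7 then went from 0.10 to 0.01, again with no call. The 95% interval of the log2 fold change ran from -0.11 to 0.24 for *Srebf2* and from -0.33 to 0.56 for *Sqle*. Neither this comparison nor the next is independent of the others, since the comparisons share libraries.

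After infarction, KO MI against WT MI asks what *Lrrc10* loss does to the injured ventricle. None of the 7 was called, as against 1.73% of all genes, and edgeR's adjusted p ran from 0.582 to 0.992. *Srebf2* averaged 23.6 ± 3.81 CPM in KO MI and 24.4 ± 0.734 in WT MI, a log2 fold change of -0.05 with a 95% interval from -0.22 to 0.13. *Idi1* averaged 15.2 ± 6.51 CPM in KO MI against 13.7 CPM in WT MI, with an interval from -0.23 to 0.55. The spread of the KO MI libraries was wider than that of WT MI for all 7 genes. The side of 0 depended on 1 library: without KO MI replicate 2, 6 of the 7 genes were below 0, among them *Idi1* (-0.14) and *Sqle* (-0.15), and the median went from 0.07 to -0.13. Without replicate 7 the median was 0.20, and *Hmgcs1* had an edgeR adjusted p of 0.0832 at 0.20. In male libraries alone 6 of 7 were below 0 (median -0.13), and none of the 7 was called in any of these fits.

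The infarct response of *Lrrc10*-/- hearts, KO MI against KO SH, held the calls among the 7 genes. *Idi1* (log2 fold change 0.70, SE 0.20, edgeR adjusted p = 0.0354) and *Sqle* (0.74, SE 0.23, adjusted p = 0.0451) rose, 2 of 7 against 5.31% of all genes called higher. *Srebf2* (0.37, SE 0.09, adjusted p = 0.0146) and *Cyp51* (0.46, SE 0.15, adjusted p = 0.0536) passed the p threshold but not the minimum fold change, so that 4 of 7 had an adjusted p under 0.1 on the higher side, as did 10.2% of all genes. *Hmgcs1* (adjusted p = 0.266), *Lss* (0.479) and *Fdft1* (0.896) did not pass in edgeR. The median log2 fold change of the 7 was 0.37, against -0.01 over all genes. In all 7 genes the KO MI and KO SH libraries overlapped. The exact permutation test (two-sided) gave p = 0.143 for *Idi1*, *Sqle* and *Cyp51* and p = 0.0571 for *Srebf2*.

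The calls depended on single libraries. *Idi1* in KO MI replicates 1, 2, 3 and 7 read 13.7, 23.7, 15.6 and 7.97 CPM, and *Sqle* read 6.08, 10.7, 6.77 and 3.29 CPM. Replicate 2 was the highest and replicate 7 the lowest of all 16 libraries for both genes, and replicate 7 was below every KO SH library. Without replicate 2 the log2 fold changes were 0.40 for *Idi1* (edgeR adjusted p = 0.152) and 0.43 for *Sqle* (adjusted p = 0.213), and 0 of the 7 genes were called. Leaving out replicate 7 instead gave 0.90 and 0.96, with adjusted p of 0.000491 and 0.00100, and *Cyp51* was called as well (0.62, adjusted p = 0.000513). Without both of them, so with 2 KO MI libraries left, the values were 0.62 for *Idi1* (adjusted p = 0.00133) and 0.66 for *Sqle* (adjusted p = 0.00623). In a fit to the 8 libraries of these groups alone only *Srebf2* had an adjusted p under 0.1 (0.0803), against 6.55% of genes on the higher side. *Sqle* also lost its call without KO SH replicate 3 (0.71, adjusted p = 0.107). In male libraries alone the fold changes were 0.41 for *Idi1* (adjusted p = 0.446) and 0.36 for *Sqle* (adjusted p = 0.668).

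The same 2 KO MI libraries stood at the ends of the range for the other genes. *Hmgcs1* in KO MI replicates 1, 2, 3 and 7 read 44.2, 55.1, 45.8 and 32.0 CPM. *Cyp51* read 16.3, 22.7, 16.4 and 10.4 CPM, and *Srebf2* read 23.3, 27.6, 24.9 and 18.5 CPM. Replicate 2 was the highest of 16 libraries for 6 of the 7 genes, all but *Fdft1*, and replicate 7 the lowest of 16 for *Hmgcs1*, *Idi1*, *Sqle* and *Cyp51*. For *Srebf2* the lowest was KO SH replicate 4, at 17.2 CPM. *Lss* read 3.01, 5.87, 4.18 and 3.75 CPM and shared the peak in replicate 2 but not the low value in replicate 7. *Fdft1* read 18.1, 20.6, 20.0 and 23.5 CPM, so that its highest KO MI library was replicate 7. The coefficient of variation in KO MI was 45.6% for *Sqle*, 42.7% for *Idi1*, 30.7% for *Cyp51*, 21.4% for *Hmgcs1* and 16.1% for *Srebf2*, where the median gene had 11.5%, above *Fdft1*. In KO SH it was 7.10% for *Sqle* and 7.94% for *Idi1*, where the median gene had 6.48%.

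**Figure D3:**
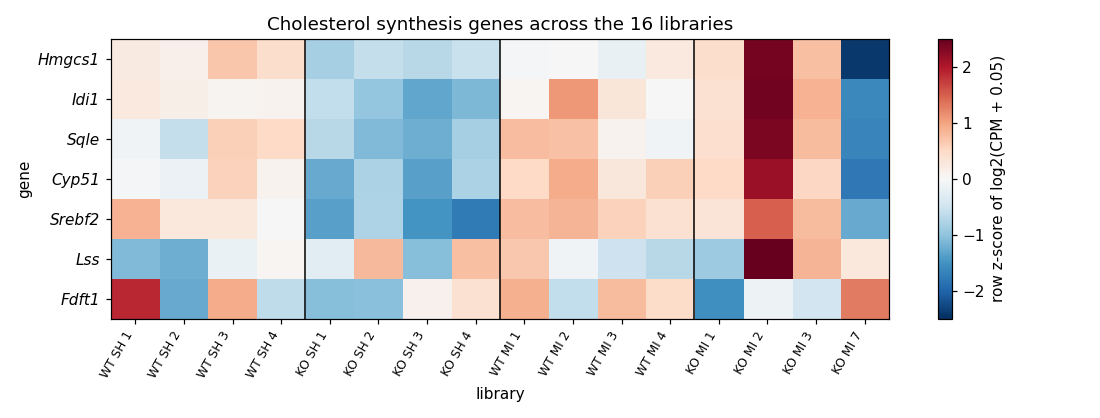
Row z-scores of log2(CPM + 0.05) of the 7 genes (rows) across the 16 libraries (columns, in 4 blocks by group, sham groups first), blue for low and red for high. The top 5 rows share a blue block in KO SH, the deepest red in KO MI replicate 2 and blue in KO MI replicate 7, whereas the *Fdft1* row does not follow them.

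The marker sums of these 2 libraries followed the enzymes only in part. The summed level of the 10 proliferation genes was 793 CPM in KO MI replicate 2 and 590 CPM in replicate 7, against 413 to 466 CPM in KO SH, and 7 of 10 were called higher in KO MI than in KO SH, where 5.31% of all genes were. The 7 erythroid genes summed to 1146 CPM in replicate 2 and 355 CPM in replicate 7 (KO SH 417 to 498 CPM), with 7 of 7 called higher. The 12 skeletal muscle genes summed to 732 CPM in replicate 2 and 379 CPM in replicate 7 (KO SH 307 to 350 CPM), with 7 of the 9 tested called higher. The median log2 fold change of the 9 was 3.68 and the lowest -0.09, while the median sum went only from 332 CPM in KO SH to 448 CPM in KO MI. This sum was thus held mostly by genes that changed little, and it is not a measure of skeletal muscle cells. Replicate 7, in which *Idi1* and *Sqle* were below every KO SH library, was thus above every KO SH library for the proliferation and skeletal muscle sums and below them for the erythroid sum. Macrophage genes, 7 of 8 of them called higher, peaked instead in replicate 3 at 104 CPM, with 62.3 CPM in replicate 2 and 60.8 CPM in replicate 7. Mitochondrially encoded genes held 38.1% of the counts of replicate 2, the lowest share of the 16 libraries, and 41.4% of those of replicate 7, the next lowest, where the highest was 47.8%. Markers of liver, the main cholesterol-making organ, were near 0, with 8 hepatocyte genes summing to 0.609 to 5.04 CPM in any library. Cardiomyocyte markers summed to 24618 CPM or more in every library. The part of these cells in the enzyme values was not tested.

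Whether *Lrrc10* loss acted differently post-MI than in sham hearts was tested as the difference of the 2 KO effects. The log2 differences were positive for all 7 genes, from 0.02 for *Fdft1* to 0.63 for *Sqle*, but none was called by edgeR, which called 0.0248% of all genes (5 of 20159). DESeq2 called 289 genes for this difference and again none of the 7. Unadjusted p were 0.0268 for *Srebf2*, 0.0524 for *Idi1* and 0.0684 for *Sqle*, and adjusted p were 0.301, 0.373 and 0.408. Without KO MI replicate 7 the difference was called for *Idi1* (0.80, edgeR adjusted p = 0.0318) and *Sqle* (0.84, adjusted p = 0.0491), in a fit that called 840 of 19994 genes. Without KO MI replicate 2 the differences were 0.30 for *Idi1* (adjusted p = 0.650) and 0.31 for *Sqle* (adjusted p = 0.706), and the median of the 7 went from 0.31 to 0.13. The lower KO SH levels and the wide KO MI range stand as values of those groups, and a genotype-dependent infarct response of the 7 genes was not shown at this size.

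Across the 16 libraries, 5 of the 7 genes varied together. In log2 CPM, Pearson's r was 0.94 for *Idi1* with *Cyp51*, 0.95 for *Sqle* with *Cyp51*, 0.93 for *Idi1* with *Sqle* and 0.90 for *Hmgcs1* with *Cyp51*. *Srebf2* had r = 0.90 with *Cyp51* and r = 0.89 with *Idi1*. *Fdft1* stood apart, with r from -0.18 to 0.07 against the other 6, and *Lss* was between, with r from 0.17 to 0.48 against those other than *Fdft1*. The mean z-score of the 6 enzymes had r = 0.82 with *Srebf2*. It was also 0.82 in the 14 libraries without KO MI replicates 2 and 7, and 0.80 for deviations from the group means. The value for 14 libraries still holds the differences between groups, and that for deviations still holds KO MI replicates 2 and 7. An r with both taken out was not computed. These correlations are descriptions: the libraries share their preparation and differ in cell make-up, and the same enzyme score had r = 0.76 with the summed proliferation genes, 0.76 with skeletal muscle genes, 0.70 with Schwann cell genes, 0.68 with erythroid genes and -0.17 with cardiomyocyte genes.

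**Figure D4:**
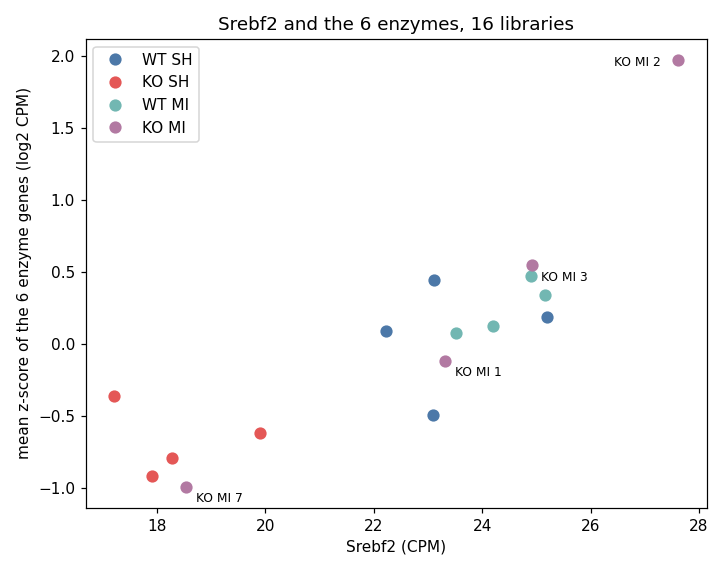
Mean z-score of the 6 enzyme genes (log2 CPM) against the *Srebf2* level (CPM) in the 16 libraries, coloured by group, with the KO MI libraries named. KO MI replicate 2 is at the upper right (27.6 CPM, score 1.97), and KO MI replicate 7 (18.5 CPM, score -0.99) lies beside the 4 KO SH libraries.

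The other genes of the pathway were counted by the same rule, to be read against 2.48% of all genes called higher and 2.53% lower in KO SH against WT SH, and 5.31% called higher in KO MI against KO SH. Of 5 other mevalonate and isoprenoid enzymes tested, 0 were called in KO SH against WT SH (median log2 fold change -0.33, against 0.01 over all genes), and 2 rose in KO MI against KO SH (median 0.31, against -0.01). These were *Mvk*, mevalonate kinase (0.66, SE 0.18, edgeR adjusted p = 0.0225), whose 4 KO MI libraries (1.95 to 3.48 CPM) were all above KO SH (1.46 to 1.78 CPM), and *Fdps*, which makes farnesyl diphosphate (0.64, SE 0.17, adjusted p = 0.0235). *Fdps* had 7.97 ± 0.779 CPM in WT SH, 5.84 ± 0.874 CPM in KO SH and 5.78 to 13.2 CPM in KO MI. Its KO MI libraries overlapped those of KO SH (5.17 to 7.10 CPM), and the exact permutation test (two-sided) gave p = 0.0571. In KO SH, *Fdps* was below every WT SH library without a call (adjusted p = 0.124), as was *Pmvk*, the next kinase after *Mvk* (log2 fold change -0.33, adjusted p = 0.0944). *Acat2*, which joins the first 2 acetyl-CoA units, had 1.35 ± 0.297 CPM in WT SH and a log2 fold change of -0.06 in KO SH (adjusted p = 0.902).

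The 9 genes of the later sterol steps did not move as 1 block. *Hsd17b7*, a sterol ketoreductase, rose in KO SH from 22.1 ± 1.58 to 34.7 ± 1.57 CPM (0.65, SE 0.07, edgeR adjusted p = 3.16e-05), the opposite direction to *Sqle* and *Cyp51*, and was the 1 called gene of the 9. In KO MI against KO SH 0 of the 9 were called, and *Hsd17b7* had a log2 fold change of -0.32 (adjusted p = 0.00822). *Lbr* and *Sc5d*, both sterol-modifying enzymes, had log2 fold changes of -0.12 (adjusted p = 0.414) and 0.24 (adjusted p = 0.0758) in KO SH. The median of the 9 was 0.10 in KO SH against WT SH and 0.09 in KO MI against KO SH. None of these 14 genes was called in WT MI against WT SH or in KO MI against WT MI.

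**Figure D5:**
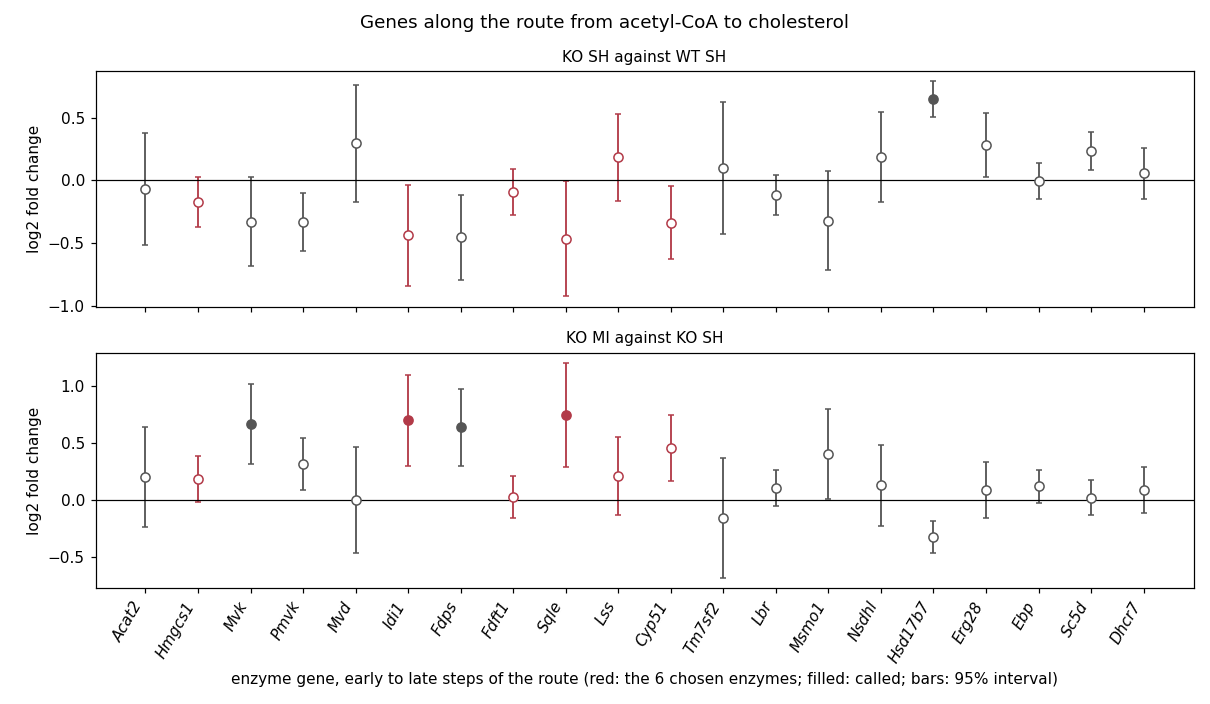
Log2 fold changes (edgeR, 95% intervals, filled for calls) of the 6 enzymes of the list, in red, and 14 other genes of the route. Genes are ordered from early to late steps, in KO SH against WT SH (top) and KO MI against KO SH (bottom). *Hsd17b7* is the filled point at the top, and *Mvk*, *Idi1*, *Fdps* and *Sqle* are filled at the bottom.

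Genes that sense and handle sterols were mostly not called. Of the 5 genes that process or retain SREBP, 0 were called in any comparison. *Insig2*, a retention protein, was lower in KO SH (26.2 ± 0.741 CPM) than in WT SH (31.7 ± 1.79 CPM), with a log2 fold change of -0.28 (edgeR adjusted p = 0.0143), and *Mbtps1*, the first of the proteases that release SREBP, had 0.07 (adjusted p = 0.344). Of 6 other known SREBP2 targets 0 were called, among them *Stard4*, a sterol carrier (-0.34 in KO SH, adjusted p = 0.171), and *Fads1*, a fatty acid desaturase (0.34 in KO MI against KO SH, adjusted p = 0.0519). Of 10 genes of efflux and storage, *Soat1*, which esterifies cholesterol for storage, rose in KO MI against KO SH (0.55, SE 0.07, adjusted p = 0.000519). Its KO MI libraries (29.0 to 36.3 CPM) were all above KO SH (20.6 to 23.8 CPM), and in WT MI it had 32.4 ± 1.56 CPM against 27.2 ± 1.11 CPM in WT SH (0.25, adjusted p = 0.0667). *Nceh1*, an ester hydrolase, had -0.28 in KO SH (adjusted p = 0.0222), and *Abca1*, the exporter of cholesterol, 0.31 (adjusted p = 0.152).

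Of 9 genes of SREBP1 and fatty acid synthesis, *Elovl6*, a fatty acid elongase, rose in KO MI against KO SH (0.69, SE 0.11, edgeR adjusted p = 0.00143), from 3.69 ± 0.120 CPM in KO SH to 5.95 ± 1.17 CPM, with no overlap. *Acsl3*, an acyl-CoA synthetase, rose in WT MI against WT SH (0.50, SE 0.08, adjusted p = 0.00361) and was the 1 gene of these lists called in wild-type hearts. Of all genes, 2.78% were called in this comparison in either direction. The change of *Acsl3* lay at the minimum fold change, sex differed between these groups, and its value with sex as a term is not given here. *Scd2*, a desaturase, and *Me1*, malic enzyme, were not called, at 0.31 for *Scd2* in KO MI against KO SH (adjusted p = 0.0771) and -0.34 for *Me1* in KO MI against WT MI (adjusted p = 0.0965). Of 8 genes for other uses of isoprenoids 0 were called. *Ggps1*, which makes geranylgeranyl diphosphate, had 0.05 in KO SH (adjusted p = 0.682), and *Nus1*, of dolichol synthesis, -0.24 (adjusted p = 0.0434).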

How the data were processed

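RNA was extracted from ventricles of 16 mice, and the table deposited by the authors holds expected counts per gene from RSEM, not normalized, in 1 column per library. The paper's methods name Skewer (version 0.1.123), STAR (version 2.5.3a) and RSEM (version 1.3.0), whereas the submitters' processing notes name cutadapt (version 3.4), HISAT2 (version 2.2.1) and RSEM (version 1.1.17). Both give GRCm39. The kit and the reads were strand-specific per the paper's methods. The strand setting of the counting step is not given in the sources used here, and exons of other genes on the opposite strand cover 4.77% to 28.3% of the exon bases of the 7 genes, most in *Cyp51* and *Fdft1*.

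Groups came from the labels. Identifiers were named with GENCODE M39 (47772 of 51912). The members and all lists were chosen with earlier results of these data known. Expected counts were rounded to whole numbers, genes with at least 10 summed counts in each group were kept, and edgeR (version 4.0.16, in R 4.3.3, with limma 3.58.1) fitted 1 coefficient per group to all 16 libraries after TMM. F-tests were two-sided with Benjamini-Hochberg adjustment over 20159 genes. The 95% intervals are normal intervals from the SE. The exact permutation tests used log2(CPM + 0.05). Libraries were called male or female from genes expressed by 1 sex. The labels do not say that replicates are separate litters, so p-values measure the spread between these libraries. Of the other pathway lists, each gene called in any comparison is named, and up to 2 others per list with the highest mean CPM. A likeness search took genes with a mean of at least 5 CPM. Some genes of the pathway are not reported here. The steps were tested on simulated data. Alternatives were DESeq2 (version 1.42.0), its size factors, other filters and thresholds, mitochondrially encoded genes left out, the groups of a contrast alone, the replicate number as a block, sex as a term, male libraries alone and each library left out. At these depths 3 counts correspond to between 0.0577 and 0.0858 CPM, and intervals cover the fit only.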

Additional observations from a re-analysis of the deposited data

How the results depend on the processing

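No member changed direction while called under any alternative. In KO MI against KO SH, where 2 members were called, 4 were called with no minimum fold change, 0 in a fit to those groups alone, 0 in male libraries alone and 1 in a fit to those groups with no minimum fold change. Leaving out 1 library at a time gave from 0 (without KO MI replicate 2) to 3 (without KO MI replicate 7), and 1 without KO SH replicate 3. In KO SH against WT SH, where 0 were called, 1 was called with no minimum fold change, 1 with sex as a term and 5 in the fit to those groups with no minimum fold change. For the difference of the KO effects the count was 0, then 1 without KO MI replicates 2 and 7, and 0 to 2 with 1 library left out. The same replicate numbers did not pair the libraries: over 21 pairs r ran from -0.06 to 0.11, and 1 was over 0.1. A fit with the replicate block gave 2 called for the difference of the KO effects, among 689 of all genes, and 3 in KO MI against KO SH. Number 7 belongs to KO MI replicate 7 alone, so its block term takes up that whole library. This fit in effect leaves KO MI replicate 7 out and is not a separate alternative to the fit without it. The counts under DESeq2, its size factors and the other filters were those given in the text, and the cause of the changes above was not tested.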

Other observations

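Among 9579 genes with a mean of at least 5 CPM, those whose log2 CPM was most like the mean z-score of the 6 enzymes over the 16 libraries were *Lrrc59* (Pearson's r = 0.93), *Ran* (0.93), *Pgam1-ps2* (0.93), *Pfkp* (0.92), *Rexo2* (0.92), *Xirp2* (0.92), *Pafah1b2* (0.92) and *Fam162a* (0.92). *Ran* is a nuclear transport GTPase and *Pfkp* a phosphofructokinase of glycolysis. Those most like *Srebf2* were *Atp1b1* (0.98), a sodium-potassium pump subunit, *Fdps* (0.95), *Tpm4* (0.95), *Nedd9* (0.94) and *Ppa1* (0.94), so that 1 of these 5 is itself an enzyme of the route. The values are given over 16 libraries that share their preparation, and they include the 2 KO MI libraries at the ends of the range.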
